A study of Homo sapiens with 3 samples.

Results

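The genes described here are 35 genes of the hypoxia response and of glycolysis in the established human melanoma line SK-Mel-28. They were chosen by name, as known targets or subunits of the hypoxia-inducible factors (HIF) and as enzymes of glycolysis. No cut-off on their measured values was used, but earlier results of these data were known when they were chosen. The microarray's annotation named 34 of the 35 in probe sets of 1 gene, and CA9 was not analysed here. In all, 89 probe sets named a member: 84 named it alone, 2 named it together with a second gene, and 3 were GAPDH control probe sets. Of the 84, 66 passed the filter on dim signals and represent 33 genes, out of 27306 probe sets and 12386 genes that passed it on the whole array.

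Total RNA was hybridised to Affymetrix Human Genome U133 Plus 2.0 arrays, with biotin as the only label. There were 2 arrays of cells carrying the vector pSilencer 3.1-H1 neo, which drives short RNAs from the H1 promoter, with a hairpin siRNA against melanotransferrin (MTf, gene symbol MELTF), labelled B1 and B2 and called siRNA arrays 1 and 2 here. The single other array came from SK-Mel-28 cells carrying the same vector with a scrambled hairpin. All 3 were stably transfected, no oxygen level, iron treatment or time is given in the labels, and nothing says whether B1 and B2 are separate clones or cultures, so the spread behind every p-value is that of these arrays and may be only technical.

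HIF is a pair of an oxygen-regulated alpha subunit and its constant partner ARNT, and it switches on genes that carry a short hypoxia response element. In oxygenated cells, prolyl hydroxylases of the EGLN family mark the alpha subunit for destruction, and they need oxygen, oxoglutarate and ferrous iron to do so, which links iron supply to the hypoxia response. Many of the genes so induced encode glucose transporters and glycolytic enzymes, and melanoma cells are known for high glycolytic activity. MELTF is an iron-binding member of the transferrin family anchored to the cell surface.

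The targeted gene was read by 4 probe sets that did not point one way, and none passed the test. The brightest gave 18968.0 and 18973.9 on the siRNA arrays, against 32607.6 on the scrambled array, a log2 difference of -0.78 ± 0.17 (SE; limma adjusted p = 0.0699), and a second gave 10567.0 and 11199.0 on the siRNA arrays, against 8284.0 on the scrambled array. The median signal of all probe sets was 174.3 and 199.5 on the siRNA arrays and 160.6 on the scrambled array, and the 3′ GAPDH control divided by the 5′ one was 1.01 on both siRNA arrays and 1.03 on the scrambled array. Of 8 melanocyte markers, 7 were on the array by this annotation and all were above the bacterial trp controls (7 to 97.2), with summed signals of 242061.5 and 265631.0 on the siRNA arrays and 289527.9 on the scrambled array. The sum covers unlike moves: TYRP1 gave 5022.3 and 12370.0 on the siRNA arrays, against 53204.1 on the scrambled array (-2.75, limma adjusted p = 0.0374), and TYR gave 35193.4 and 37554.9 on the siRNA arrays, against 19987.6 on the scrambled array (0.86, limma adjusted p = 0.0529). The 3 TYR probe sets ran from -0.11 to 1.11. For other cell types, EPCAM, KRT19, CDH1, PDGFRB, PTPRC, CD14, CDH5 and TEK were at or below the trp controls on all 3 arrays. The 6 epithelial markers summed to 2911.5 and 2774.1 on the siRNA arrays, against 1999.8 on the scrambled array, of which KRT18 made 2482.9 and 2148.5 on the siRNA arrays and 1308.2 on the scrambled array (0.80, limma adjusted p = 0.142), while KRT8 was at -0.84 (limma adjusted p = 0.282). The 6 fibroblast markers summed to 5696.1 and 5919.3 on the siRNA arrays, against 1771.9 on the scrambled array, and LUM alone gave 4850.0 and 4840.6 on the siRNA arrays and 598.6 on the scrambled array (2.92, limma adjusted p = 0.00719). The other fibroblast markers past the filter, COL1A1 (-0.33) and DCN (-0.25), had means below the scrambled array. The 4 measured leukocyte markers summed to 657.7 and 575.9 on the siRNA arrays and 1404.4 on the scrambled array. Of these sums LCP1, the only leukocyte marker past the filter, made 477.8 and 384.7 on the siRNA arrays and 1130.1 on the scrambled array (-1.31, limma adjusted p = 0.0804). The 5 endothelial markers summed to 428 and 730 on the siRNA arrays and 516.8 on the scrambled array. The part of these marker shifts in the values below was not tested.

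The comparison asked which of the hypoxia and glycolysis genes differ when melanotransferrin is targeted. No member passed the limma test at an adjusted p of 0.05, neither among the 66 probe sets nor among the 33 genes, where the probe set with the highest mean stands for its gene. On the whole array 2.09% of probe sets and 2.64% of genes passed it, and the smallest adjusted p of a member was 0.0529. At an unadjusted p of 0.05 the same limma fit set apart 13 of the 66 member probe sets, 5 higher in siRNA cells (7.58%, against 12.4% of all probe sets) and 8 lower (12.1%, against 7.77% of all probe sets).

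By gene, 3 members were higher in siRNA cells at an unadjusted p of 0.05 (9.09% of members, against 14.0% of all genes), namely PFKP, P4HA1 and P4HA2. In the other direction 5 were lower (15.2% of members, against 8.92% of all genes), namely ANKRD37, SLC2A3, EPAS1, EGLN1 and VEGFA. None of these 8 held after adjustment over all probe sets past the filter. A separate test took the mean over the probe sets of a gene past the filter and adjusted over genes. In it PFKP and P4HA1 passed (limma adjusted p = 0.0277 and 0.0332). Each had only 1 probe set past the filter, so nothing was averaged and their log2 differences stayed at 1.20 and 1.10. For these genes only the fit and the adjustment over genes differed.

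Differences are given as log2(signal + 47.4), siRNA minus scrambled, where 47.4 is the 25th percentile of all signals; a positive value means higher in siRNA cells. The members ran from -0.87 (CA12) to 1.20 (PFKP), and 22 of the 33 lay within 0.5 of zero. Their median was -0.086, against 0.10 over all genes tested, and by array it was -0.12 on siRNA array 1 (all genes 0.057) and 0.039 on siRNA array 2 (all genes 0.14). On both siRNA arrays 12 members were above the scrambled array (36.4%, against 46.7% of all genes), 16 were below it (48.5%, against 32.5% of all genes), and 5 were split. One member, PFKP, was at least 2-fold higher on both siRNA arrays, which held for 4.19% of all genes, and 0 were 2-fold lower on both, which held for 1.94% of all genes.

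The split between higher and lower members moved with the scaling of the arrays. With the arrays centred on a common median of log2 values, the median of all genes moved to -0.073 and that of the members to -0.26, with 12 members above 0 and 21 below, where the deposited scaling gave 15 above and 18 below. Under quantile normalization the medians were 0.021 for all genes and -0.0036 for the members, with 16 members above 0 and 17 below. Relative to all genes, the members' median was therefore -0.18 under the deposited scaling and -0.025 under quantile normalization. Centring moves all genes of an array alike, so the same -0.18 with centred arrays was fixed in advance. RNA came from whole cultures, in which fewer cells using a gene and less RNA per cell cannot be told apart.

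**Figure D1:**
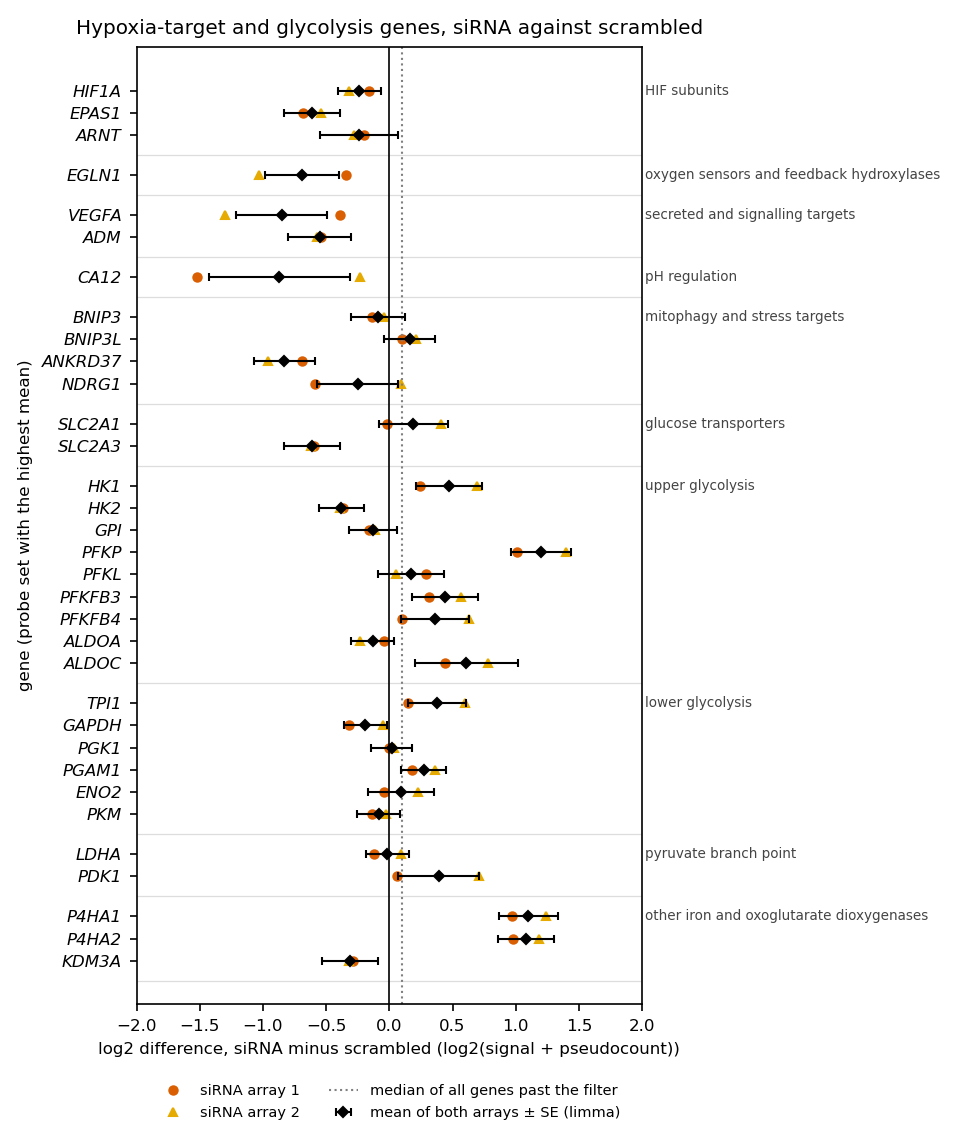
Each line is 1 gene, with its log2(signal + pseudocount) difference from the scrambled array on the x axis for siRNA array 1 (circles), siRNA array 2 (triangles) and their mean ± SE from limma (diamonds); the dotted line is the median of all genes, 0.10. PFKP, P4HA1 and P4HA2 lie beyond 1 on the right, while CA12, VEGFA, ANKRD37 and EGLN1 lie farthest to the left, and the 2 siRNA arrays are far apart for CA12, VEGFA, EGLN1 and NDRG1.

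The letters before the start of the genes that lay farthest out on either side are shown because a hypoxia response element holds the core ACGTG or GCGTG. The 250 bases before each RefSeq gene start (build GRCh38.p14) are printed 5′ to 3′ along the gene's own strand, with every ACGTG or GCGTG in capitals; a match on the opposite strand appears as CACGT or CACGC. The table used held 31 of the 35 members, and the 3 with the largest difference in each direction among them were taken. The region for PFKP is chr10:3067720-3067969 (plus strand), for P4HA1 chr10:73096867-73097116 (minus strand) and for P4HA2 chr5:132227092-132227341 (minus strand). The region for CA12 is chr15:63381847-63382096 (minus strand), for ANKRD37 chr4:185396591-185396840 (plus strand) and for EGLN1 chr1:231422288-231422537 (minus strand).
PFKP: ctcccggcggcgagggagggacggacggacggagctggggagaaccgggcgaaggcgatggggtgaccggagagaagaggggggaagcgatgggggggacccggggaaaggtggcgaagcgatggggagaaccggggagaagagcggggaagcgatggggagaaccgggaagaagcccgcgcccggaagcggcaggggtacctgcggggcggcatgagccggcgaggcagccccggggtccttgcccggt
P4HA1: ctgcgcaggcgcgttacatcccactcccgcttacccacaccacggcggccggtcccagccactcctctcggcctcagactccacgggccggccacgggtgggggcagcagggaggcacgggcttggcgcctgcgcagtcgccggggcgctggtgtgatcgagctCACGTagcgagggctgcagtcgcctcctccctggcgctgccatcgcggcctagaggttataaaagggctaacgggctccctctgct
P4HA2: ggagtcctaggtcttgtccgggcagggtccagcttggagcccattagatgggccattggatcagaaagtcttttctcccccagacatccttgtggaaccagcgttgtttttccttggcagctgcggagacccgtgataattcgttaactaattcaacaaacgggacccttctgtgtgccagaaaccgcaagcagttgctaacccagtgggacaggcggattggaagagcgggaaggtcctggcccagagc
CA12: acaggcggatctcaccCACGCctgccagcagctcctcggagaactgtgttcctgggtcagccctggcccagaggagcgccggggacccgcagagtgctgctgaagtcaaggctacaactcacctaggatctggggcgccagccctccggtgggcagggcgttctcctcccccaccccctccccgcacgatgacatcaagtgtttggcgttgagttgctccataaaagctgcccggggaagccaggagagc
ANKRD37: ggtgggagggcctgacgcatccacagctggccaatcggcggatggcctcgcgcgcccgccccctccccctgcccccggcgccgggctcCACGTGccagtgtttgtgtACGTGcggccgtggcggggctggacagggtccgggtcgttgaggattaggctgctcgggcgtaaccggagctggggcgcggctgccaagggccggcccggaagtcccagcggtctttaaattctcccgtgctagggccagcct
EGLN1: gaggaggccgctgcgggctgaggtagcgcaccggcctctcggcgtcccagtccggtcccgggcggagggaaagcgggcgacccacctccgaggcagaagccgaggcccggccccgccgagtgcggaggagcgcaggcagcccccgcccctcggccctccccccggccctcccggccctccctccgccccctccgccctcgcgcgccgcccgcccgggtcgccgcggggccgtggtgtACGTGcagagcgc

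PFKP and P4HA2, higher in siRNA cells, held neither core in these 250 bases, and P4HA1 held 1, starting at position -86 from the gene start. ANKRD37, lower in siRNA cells, held 3 matches of ACGTG, starting at positions -162, -161 and -143, of which the first 2 overlap on opposite strands of a palindrome. EGLN1 held 1 match of ACGTG at position -13, and CA12 held 1 match of GCGTG, on the opposite strand, at position -234. Over all members with a promoter in the table, 21 of 31 held at least 1 of the cores (67.7%), against 56.9% of 10096 genes past the filter and 43.1% of all 27305 promoters of the same length. The core ACGTG was present in 41.9% of the members and 23.3% of genes past the filter, and GCGTG in 38.7% of the members and 45% of genes past the filter. The members were chosen by name as HIF targets, HIF subunits or glycolysis enzymes, so these shares are not independent of that choice. Among members below the scrambled array on both siRNA arrays 12 of 14 held a core, and among those above it on both 5 of 11 did. The shares among all genes below or above on both arrays were not computed, so these counts only describe the members. Whether a core goes with the direction of a difference was not tested. The members' promoters had a median GC content of 69.6%, against 64.8% for genes past the filter. A match is a run of letters and not a measured binding site.

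All 3 HIF subunits were below the scrambled array on both siRNA arrays by their highest-mean probe set, which held for 32.5% of all genes. None of the 3 passed the test. HIF1A, the main oxygen-regulated alpha subunit, gave 42881.4 and 38556.4 on the siRNA arrays, against 48053.4 on the scrambled array (log2 difference -0.24 ± 0.17, limma adjusted p = 0.467). EPAS1, which encodes the alpha subunit HIF-2α, gave 3290.9 and 3632.4 on the siRNA arrays, against 5300.8 on the scrambled array. Both siRNA values of EPAS1 were under the scrambled one, at 65.2% of it, with a log2 difference of -0.61 ± 0.22 (limma adjusted p = 0.191). ARNT, the constant partner, gave 526.9 and 496.5 on the siRNA arrays and 611.9 on the scrambled array, but its 5 probe sets past the filter ran from -0.24 to 0.75 and averaged 0.31, so that its direction depended on the probe set.

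EGLN1, the main prolyl hydroxylase that marks HIF alpha subunits and itself a HIF target, gave 13865.0 and 8629.6 on the siRNA arrays, against 17618.9 on the scrambled array. Array 2 stood lower than array 1 (-1.03 and -0.34), and the mean log2 difference was -0.69 ± 0.29 (limma adjusted p = 0.239). All 4 of its probe sets, including 1 below the filter, were lower on both siRNA arrays. EGLN3, a prolyl hydroxylase induced in hypoxia, was dim: its brighter probe set gave 183.8 and 189.8 on the siRNA arrays and 35 on the scrambled array, and the other gave 24.6 and 21.7 on the siRNA arrays and 10.8 on the scrambled array. Since scrambled signals of EGLN3 lie in the range of the trp controls, no fold is given for it.

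The secreted targets were both lower on both siRNA arrays, which held for 32.5% of all genes. VEGFA, the growth factor for blood vessels, gave 6963.2 and 3689.3 on the siRNA arrays, against 9160.8 on the scrambled array, a log2 difference of -0.85 ± 0.36 (limma adjusted p = 0.24). The siRNA arrays themselves differed, with -0.39 on array 1 and -1.30 on array 2, and all 4 VEGFA probe sets were lower on both arrays, with means from -0.87 to -0.41. ADM, the vasodilator peptide adrenomedullin, gave 1384.6 and 1360.5 on the siRNA arrays, against 2036.0 on the scrambled array (log2 difference -0.55 ± 0.25, limma adjusted p = 0.277). The 2 siRNA values of ADM were close together and both were under the scrambled one.

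CA12, a membrane carbonic anhydrase that helps to regulate pH outside the cell, had the lowest mean of the members and also the widest spread. It gave 114.1 and 347.2 on the siRNA arrays, against 414.4 on the scrambled array, with log2 differences of -1.52 on array 1 and -0.23 on array 2 and a mean of -0.87 ± 0.56 (limma adjusted p = 0.439). That probe set is of a kind that may bind other transcripts, and without such probe sets the CA12 difference was -0.26, an alternative chosen after the data were seen.

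Of the targets tied to mitophagy and stress, ANKRD37 stood lowest. This small ankyrin-repeat protein gene, a direct HIF target, gave 3419.8 and 2827.2 on the siRNA arrays, against 5547.4 on the scrambled array, or 56.1% of the scrambled signal. Both siRNA values lay under the scrambled one, which held for 32.5% of all genes, and the log2 difference was -0.83 ± 0.24 (limma adjusted p = 0.118). BNIP3, a receptor that brings mitochondria to autophagy, gave 6054.0 and 6463.1 on the siRNA arrays and 6659.4 on the scrambled array (-0.09 ± 0.21, limma adjusted p = 0.859). Its relative BNIP3L gave 9410.9 and 10184.2 on the siRNA arrays and 8787.5 on the scrambled array (0.16 ± 0.20, or -0.015 with centred arrays). NDRG1, a stress-responsive gene known to be induced by hypoxia and by iron chelation, was split: it gave 2324.7 and 3760.9 on the siRNA arrays and 3519.9 on the scrambled array, one below and one above (-0.25 ± 0.32, limma adjusted p = 0.721). For BNIP3 and BNIP3L the intervals of the log2 difference were -0.58 to 0.40 and -0.31 to 0.62 (95%), so these arrays allow a difference of that size in either direction.

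The glucose transporters did not move together. SLC2A1 (GLUT1), the widespread basal transporter, gave 2362.7 and 3188.3 on the siRNA arrays and 2392.2 on the scrambled array (0.19 ± 0.27, limma adjusted p = 0.746), and the mean of its 2 probe sets was -0.04, where the second probe set read 85 on siRNA array 1, within the trp controls. SLC2A3 (GLUT3), a high-affinity transporter, gave 3275.7 and 3222.5 on the siRNA arrays, against 4995.1 on the scrambled array, by its highest-mean probe set (-0.61 ± 0.22, limma adjusted p = 0.184). That probe set, like the one of CA12, is of the kind that may bind other transcripts, and without such probe sets a second one stands for SLC2A3. This second SLC2A3 probe set gave 2659.7 and 1941.6 on the siRNA arrays, against 5358.3 on the scrambled array (-1.22 ± 0.27, limma adjusted p = 0.0698). In the third SLC2A3 probe set the scrambled value lay between the siRNA ones, with 2425.0 and 1787.8 on the siRNA arrays and 2023.9 on the scrambled array (0.04). Both probe sets that name SLC2A3 together with its near-identical copy SLC2A14 were lower on both siRNA arrays (-0.77, limma adjusted p = 0.132, and -0.97, limma adjusted p = 0.122), and signals of these copies cannot be told apart there. The second SLC2A3 probe set passed the test with centred arrays (-1.39, limma adjusted p = 0.0217).

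**Figure D2:**
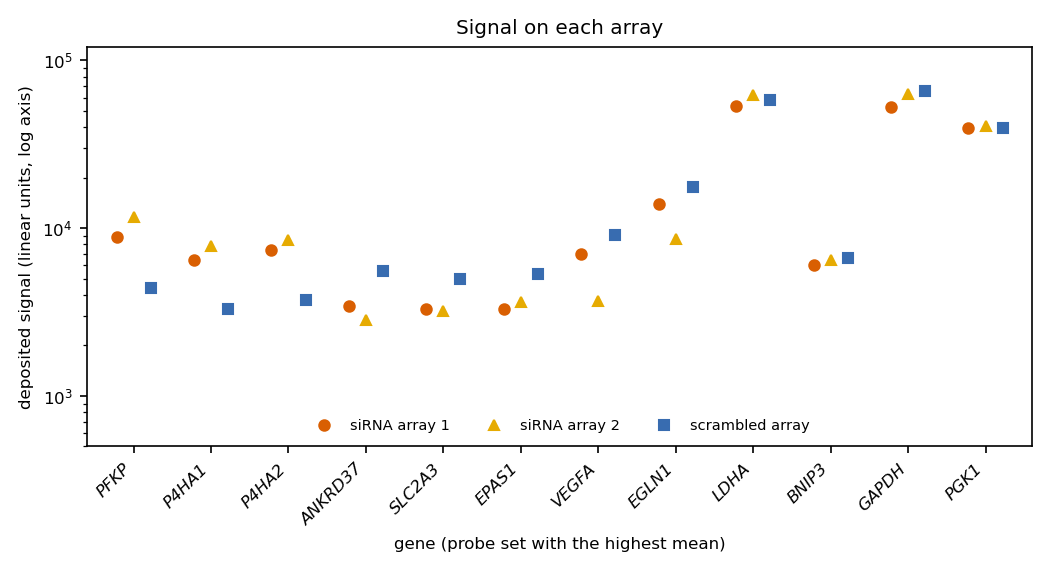
Deposited signal (linear units on a log axis) of 12 member genes on siRNA array 1 (circles), siRNA array 2 (triangles) and the scrambled array (squares), each by its highest-mean probe set. The siRNA points lie above the scrambled one for PFKP, P4HA1 and P4HA2 and below it for ANKRD37, SLC2A3, EPAS1, VEGFA and EGLN1, while LDHA, BNIP3, GAPDH and PGK1 show points close together; heights are not comparable between genes, because probe sets differ in brightness.

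The enzymes of the upper part of glycolysis, which spend ATP to split glucose into trioses, had a median log2 difference of 0.36 (all genes 0.10). Of these 9, 6 were above the scrambled array on both siRNA arrays (66.7%, against 46.7% of all genes). The other 3 were below it on both (33.3%, against 32.5% of all genes). PFKP, the platelet form of phosphofructokinase, which catalyses the committed step, gave 8850.2 and 11612.4 on the siRNA arrays, against 4377.7 on the scrambled array. Each siRNA signal was more than 2-fold above the scrambled signal. The log2 difference was 1.20 ± 0.24, or 2.3-fold, with an interval from 0.65 to 1.76 (95%; limma adjusted p = 0.0529). PFKP was thus just outside the threshold, and it passed with centred arrays (1.03, limma adjusted p = 0.0286) and in the test on gene means over probe sets (limma adjusted p = 0.0277). In the test on gene means only 1 PFKP probe set past the filter entered, so nothing was averaged. PFKP passed in no other alternative, and its limma adjusted p over all of them ran up to 0.192. Its second probe set, at the level of the dim probe sets, gave 33.7 and 203.9 on the siRNA arrays and 185.8 on the scrambled array and did not pass the filter.

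The liver-type subunit PFKL was at 0.17 ± 0.26, with 1 of its 2 probe sets split between the siRNA arrays. PFKFB3 and PFKFB4, which make and break the allosteric activator of phosphofructokinase, were at 0.44 ± 0.26 (limma adjusted p = 0.396) and 0.36 ± 0.27 (limma adjusted p = 0.501). The 2 hexokinases, which trap glucose by phosphorylation, lay on opposite sides. HK1, the housekeeping form, gave 4679.9 and 6378.3 on the siRNA arrays and 3943.0 on the scrambled array (0.47 ± 0.26, limma adjusted p = 0.363). HK2, the inducible form and a HIF target, gave 16486.0 and 16278.9 on the siRNA arrays, against 21285.4 on the scrambled array (-0.38 ± 0.18, limma adjusted p = 0.293). The 2 siRNA values of HK2 were nearly equal and 77% of the scrambled one in the mean, and its other probe sets gave -1.0 and -0.17. GPI, the isomerase that follows hexokinase, was at -0.13 ± 0.19. Of the aldolases, ALDOA was at -0.13 ± 0.17 with probe sets from -0.23 to 0.16, and ALDOC, at low signals of 253.4 and 333.7 on the siRNA arrays and 175.0 on the scrambled array, was at 0.61 ± 0.41 (limma adjusted p = 0.456).

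The enzymes of the lower part, which recover ATP, stayed within 0.38 of zero, with a median of 0.056 over 6 genes. TPI1, which interconverts the trioses, was the highest at 0.38 ± 0.23 (limma adjusted p = 0.419), and its 3 probe sets were higher on both siRNA arrays. GAPDH, often used as a reference gene, gave 52444.8 and 63241.6 on the siRNA arrays, against 65496.8 on the scrambled array (-0.19 ± 0.17, limma adjusted p = 0.608). Its 3 annotated probe sets were lower on both siRNA arrays, and the 3′ control probe set for the same transcript gave 58975.8 and 65163.7 on the siRNA arrays and 66760.2 on the scrambled array. PGK1, which makes the first ATP of the payoff phase, gave 39396.8 and 40560.3 on the siRNA arrays and 39480.1 on the scrambled array (0.018 ± 0.16, or -0.15 with centred arrays). Its 5 probe sets past the filter ran from 0.018 to 0.52, so the size of the PGK1 difference depended on the probe set. PGAM1, the phosphoglycerate mutase, was at 0.27 ± 0.18, the enolase ENO2 at 0.093 ± 0.26 (-0.077 with centred arrays) and the pyruvate kinase PKM at -0.086 ± 0.17.

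At the pyruvate branch point, LDHA, which turns pyruvate into lactate, gave 53217.0 and 61887.4 on the siRNA arrays and 57982.4 on the scrambled array. The scrambled value lay between the siRNA values, with a log2 difference of -0.015 ± 0.17 (0.11 under quantile normalization) and an interval from -0.41 to 0.38 (95%). PDK1, the kinase that keeps pyruvate out of the mitochondrial cycle, gave 1727.0 and 2742.1 on the siRNA arrays and 1652.0 on the scrambled array (0.39 ± 0.32, limma adjusted p = 0.552). The difference for PDK1 came mostly from siRNA array 2, with 0.062 on array 1 and 0.71 on array 2.

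The remaining members are iron- and oxoglutarate-dependent dioxygenases, of the same enzyme class as the EGLN proteins and themselves HIF targets. P4HA1 and P4HA2 encode catalytic subunits of collagen prolyl hydroxylase, which stabilises the collagen triple helix. P4HA1 gave 6485.9 and 7822.8 on the siRNA arrays, against 3288.1 on the scrambled array (1.10 ± 0.23, limma adjusted p = 0.0589). P4HA2 gave 7405.1 and 8517.8 on the siRNA arrays, against 3731.0 on the scrambled array (1.08 ± 0.22, limma adjusted p = 0.0559). For both genes each siRNA signal was well above the scrambled one, at 217% and 213% of it in the mean, and the second P4HA2 probe set past the filter was also higher on both (0.90). P4HA1 passed in the test on gene means only (limma adjusted p = 0.0332), where it entered with its 1 probe set past the filter. Its limma adjusted p over the alternatives ran up to 0.193. No alternative tried took P4HA2 past the threshold (limma adjusted p from 0.0515 to 0.192). KDM3A, a histone demethylase, gave 4198.3 and 4116.4 on the siRNA arrays, against 5156.2 on the scrambled array (-0.31 ± 0.22, limma adjusted p = 0.479).

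Agreement among probe sets of one gene was checked for the 18 members with several past the filter. In 9 of these genes all probe sets differed from the scrambled array in the same direction on both siRNA arrays, 6 of them lower and 3 higher. The share over all genes was not computed, so these counts only describe the members. In the rest at least 1 probe set was split between the arrays or went the other way, with the widest ranges for SLC2A3 (-1.22 to 0.04), ARNT (-0.24 to 0.75) and HK2 (-1.0 to -0.17).

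**Figure D3:**
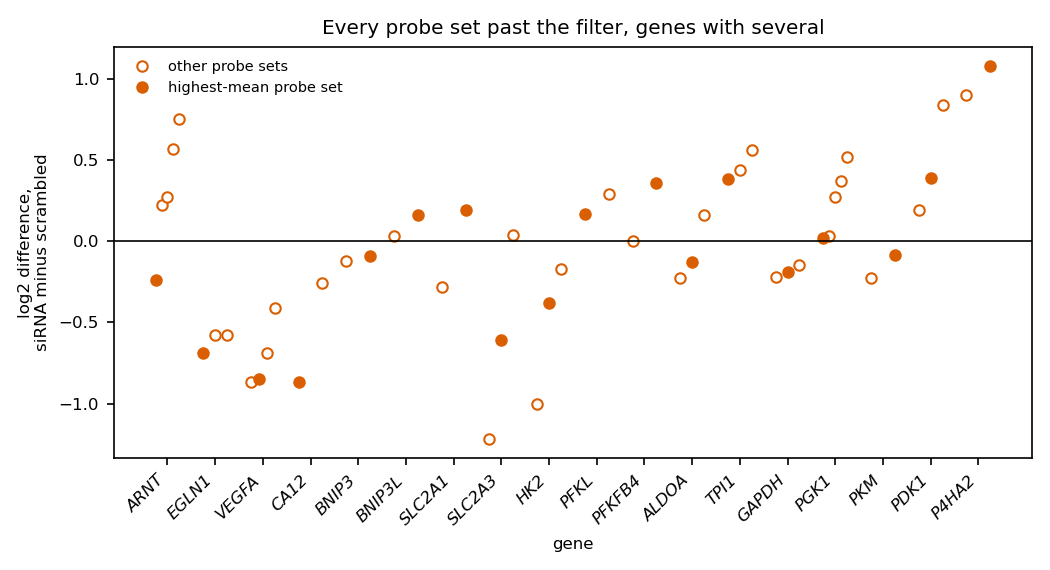
Log2 difference, siRNA minus scrambled, of every probe set past the filter for the 18 member genes with several, with the highest-mean probe set filled. EGLN1 and VEGFA have all points below zero and TPI1 and P4HA2 all above, while the points of ARNT lie on both sides, with its highest-mean probe set the only one below zero.

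The siRNA arrays differed from each other by a median of 0.24 on the log2 scale over the members, against 0.23 over all genes. On array 2, 22 members were higher than on array 1 and 11 were lower, where 55.8% of all genes were higher on array 2. The members with the widest gaps were CA12, VEGFA, EGLN1, NDRG1 and PDK1, in the values given above. All log2 differences share the 1 scrambled array, so an error on that array moves both siRNA arrays of a gene together.

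Genes that work beside the members were read from 4 further lists, chosen with earlier results of these data known. Their calls rest on a test whose count over the whole array, 571 probe sets, ranged from 1 to 1528 over the alternatives tried. Of 16 partners and regulators of HIF, 14 passed the filter, with a median of -0.13. The limma test called 0 higher and 1 lower, where it called 2.64% of all genes in either direction. The 1 was CITED2, a HIF target whose protein competes with HIF-1α for its co-activators. It gave 2271.3 and 2027.2 on the siRNA arrays, against 6212.5 on the scrambled array, and fell by 1.51 ± 0.23 on the log2 scale (limma adjusted p = 0.0323). HIF1AN, the asparaginyl hydroxylase that blocks HIF activity, was at -0.71 (limma adjusted p = 0.179), and OS9, at 0.64 (limma adjusted p = 0.131), did not pass the test either.

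Of 31 further HIF targets, 27 passed the filter, with a median of -0.075. The test called 1 higher and 0 lower (2.64% of all genes in either direction). ERO1A, an oxidase that supports disulfide formation in the endoplasmic reticulum, gave 7173.9 and 8440.8 on the siRNA arrays, against 3449.3 on the scrambled array, and rose by 1.16 ± 0.22 (limma adjusted p = 0.0493), with its 3 probe sets at 0.31 to 1.16. LOX, which cross-links collagen, was at -0.78 (limma adjusted p = 0.137), with its 3 probe sets from -0.78 to -0.027. The adenylate kinase AK4 was at 0.71 (limma adjusted p = 0.151). TFRC, the transferrin receptor and a HIF target, was at -0.47 (limma adjusted p = 0.239), with its 3 probe sets past the filter from -0.62 to -0.0037. HMOX1, of the same list, went the other way, at 0.97 (limma adjusted p = 0.183), with 1.36 on array 1 and 0.59 on array 2. TFRC and HMOX1 were named after their values were seen.

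Of 30 further genes of glycolysis and pyruvate use, 17 passed the filter, with a median of 0.18. The test called 0 higher and 1 lower (2.64% of all genes in either direction). BPGM, which diverts a glycolytic intermediate to bisphosphoglycerate, gave 2504.7 and 1770.1 on the siRNA arrays, against 12046.2 on the scrambled array, and fell by 2.49 ± 0.27 (limma adjusted p = 0.0183) by its only probe set. PFKFB2, a relative of PFKFB3, was at -1.13 (limma adjusted p = 0.0718), and DLAT, a subunit of pyruvate dehydrogenase, at 0.74 (limma adjusted p = 0.16).

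Of 26 further iron- and oxoglutarate-dependent dioxygenases, 24 passed the filter, with a median of -0.055, and limma called 0 at the adjusted threshold, with 4 higher (16.7%, against 14.0% of all genes) and 3 lower (12.5%, against 8.92% of all genes) at an unadjusted p of 0.05. Named by size were ASPH (1.14, limma adjusted p = 0.0841), PHYH (0.84, limma adjusted p = 0.108) and KDM2B (0.79, limma adjusted p = 0.138). ASPH hydroxylates aspartate and asparagine in secreted and membrane proteins, PHYH acts in the breakdown of branched fatty acids, and KDM2B demethylates histones. The 3 lower ones, named after their values were seen, were KDM5B (-0.76, limma adjusted p = 0.16), P3H2 (-0.75, limma adjusted p = 0.168) and JMJD6 (-0.52, limma adjusted p = 0.216).

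**Figure D4:**
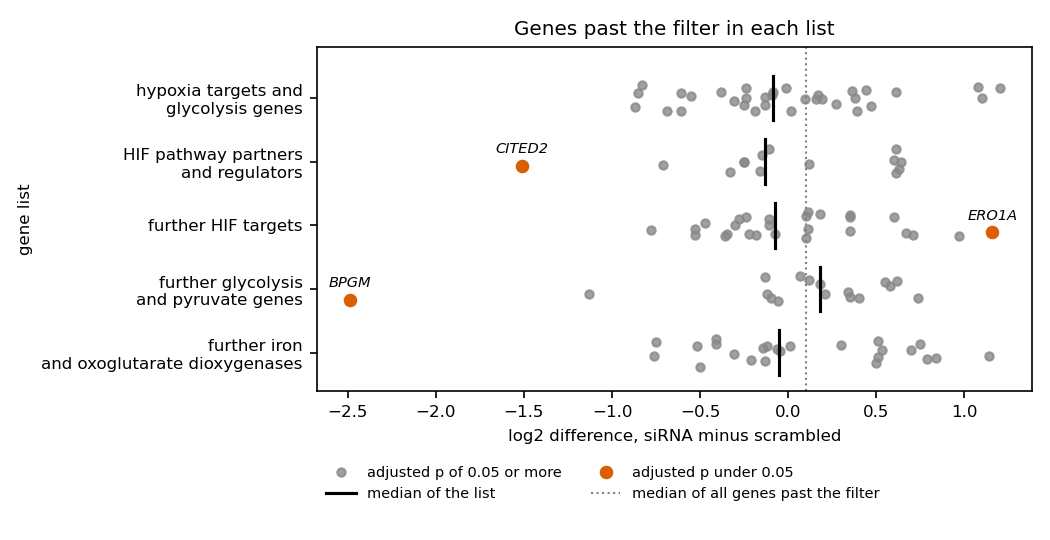
Each point is a gene past the filter, at its log2 difference, siRNA minus scrambled, grouped by list; black bars are list medians and the dotted line is the median of all genes, 0.10. Filled orange points passed the limma test (CITED2, ERO1A and BPGM), and none of the hypoxia targets and glycolysis genes in the top line did.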

How the data were processed

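The authors deposited linear intensities, 1 for each probe set on each of 3 single-colour arrays, made with GCOS 1.3 per the submitters' processing notes. Its settings were not given in the sources used here. There were 0 value columns of other samples. The fit left out the 62 control probe sets, and genes were named from the array platform's annotation, which named 1 gene for 41091 of the other 54613 probe sets, several for 1801 and none for 11721; symbols were matched by Entrez identifier to GRCh38.p14 (0 changed, 54 unmatched).

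Signals were analysed as log2(signal + 47.4), which understates changes of dim probe sets. The filter kept probe sets whose mean log2 value exceeded the median (7.74). The probe set of highest mean stood for its gene. siRNA was compared with scrambled by limma 3.58.1 in R 4.3.3 (lmFit, eBayes with trend), and two-sided p-values were adjusted by Benjamini-Hochberg, at 0.05. The adjustment ran over all probe sets past the filter, and a gene took the value of its highest-mean probe set. Only the separate test on gene means was adjusted over genes. The fit has 1 residual degree of freedom, to which moderation added 6.36, and it assumes that the single scrambled array varies as the siRNA arrays do. SEs and intervals come from this model, and the number of arrays limits the precision.

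Every member is named; those with the largest differences or past an unadjusted p of 0.05 have their signals on each array. Of the further lists, genes past the threshold and up to 3 a list with the largest difference on both arrays are named. TFRC and HMOX1 were added after their values were seen. The members and lists were chosen with earlier results of these data known. Where the signals of a gene's highest-mean probe set lay within the trp controls, a limit chosen after the data were seen, no fold is given. Promoter letters come from RefSeq (GRCh38.p14), searched on both strands for ACGTG or GCGTG.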

Additional observations from a re-analysis of the deposited data

Results flagged for a closer look

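The 6 control probe sets for ribosomal RNA entered no comparison. On siRNA array 1 they read above the scrambled array, by a median ratio of 3.76, and on siRNA array 2 the median ratio was 1.06. The part of this difference in the members' values was not tested.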

How the results depend on the processing

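With centred arrays the limma test called 1528 probe sets on the whole array, against 571 with the deposited scaling, and 2 member probe sets (PFKP and SLC2A3) and 1 member gene (PFKP), against 0 and 0; the median of the members was -0.26, against -0.086, and 0 members were 2-fold different on both siRNA arrays, against 1. Quantile normalization gave 360 probe sets called and 2 members 2-fold different; a pseudocount of 100 gave 0 members 2-fold different, and no filter gave 2. No filter called 1 probe set, a mean above the 75th percentile 9, and a fit without the trend on mean signal 1. The mean over the probe sets of a gene past the filter called 2 members, PFKP and P4HA1, each with only 1 such probe set. Comparing each siRNA array alone with the scrambled array, for which no test is possible, gave member medians from -0.12 to 0.039 and 1 to 5 members 2-fold different; the median was above zero without siRNA array 1. The direction turned for ARNT (0.31) and SLC2A1 (-0.04) with the mean over probe sets, for BNIP3L (-0.015), PGK1 (-0.15) and ENO2 (-0.077) with centred arrays, and for LDHA (0.11) under quantile normalization; the cause was not tested. The other members kept their direction under each alternative using both siRNA arrays that was run for them; the 75th percentile gave no value for ALDOC, ARNT and CA12, nor did leaving out cross-hybridising probe sets for ALDOA and GAPDH. The last, added after the data were seen, gave a member median of -0.015 and -1.22 for SLC2A3 (limma adjusted p = 0.0698), against -0.61. No paired analysis was possible because there is only 1 scrambled array. With 1 array against 2, the lowest adjusted p of a member missed the threshold by little, and signals near the trp controls, such as those of EGLN3, limit what can be said of dim genes.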
